A study of Mus musculus with 7 samples.

Results

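The GABA-B receptor is described here through 5 genes: its subunits Gabbr1 and Gabbr2, and Kctd8, Kctd12 and Kctd16, which encode the cytoplasmic proteins that join the receptor as auxiliary subunits. The genes were taken by name, by matching the Ensembl IDs of the count table to GENCODE M21, and all 5 were found among its 39017 rows. The RNA came from mouse hippocampus and from translating ribosome affinity purification (TRAP), which pulls down tagged ribosomes from chosen cells together with the mRNA on them. All mice carried Gad2-Cre and the L10-EGFP allele, so that a ribosomal protein fused to green fluorescent protein was made in cells that use, or have used, the promoter of Gad2, a GABA-synthesizing enzyme. Each TRAP sample drew on 2 hippocampi. The bound group held 3 libraries of RNA recovered with the tagged ribosomes, whose titles begin with GAD_ctrl, and the unbound group held 4 libraries of the RNA left behind. Unbound replicates 1 and 2 carry titles beginning with UBS and replicates 3 and 4 titles beginning with UBGS, 2 prefixes that the labels do not explain. The unbound RNA still holds the RNA of any GABAergic cell whose ribosomes were not captured. No source used here gives age, sex or the animals behind each library, so p-values measure only the spread between these libraries, which may be technical.

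The GABA-B receptor is the metabotropic receptor for GABA and works as an obligate heterodimer. Gabbr1 binds GABA, while Gabbr2 brings Gabbr1 to the cell surface and engages inhibitory G proteins. On axon terminals the freed G-protein beta and gamma subunits reduce the opening of calcium channels and thereby transmitter release, and on dendrites they open inwardly rectifying GIRK potassium channels, while the alpha subunit inhibits adenylyl cyclase. The KCTD proteins bind the tail of Gabbr2, and Kctd12 speeds the desensitization of the response. In the hippocampus the receptor is found on both pyramidal cells and interneurons, including on the terminals of interneurons themselves.

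The 250 bases before the RefSeq start of 3 genes that were higher in the bound libraries are printed, to show how their base composition differs. They are given 5′ to 3′ on the gene's strand, from the RefSeq table for GRCm38.p6, in which 4 of the 5 genes had an entry. Capitals mark GC boxes (GGGCGG or its reverse complement CCGCCC) and the cyclic AMP response element (CRE, TGACGTCA, which reads the same on both strands), and the motifs do not overlap.
Gabbr1, chr17:37045716-37045965, plus strand: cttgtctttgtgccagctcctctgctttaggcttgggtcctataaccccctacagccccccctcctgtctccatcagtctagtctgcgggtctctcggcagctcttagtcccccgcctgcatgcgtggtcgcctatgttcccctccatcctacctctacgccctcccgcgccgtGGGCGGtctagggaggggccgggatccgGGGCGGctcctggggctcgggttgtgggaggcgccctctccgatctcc
Kctd8, chr5:69341710-69341959, minus strand: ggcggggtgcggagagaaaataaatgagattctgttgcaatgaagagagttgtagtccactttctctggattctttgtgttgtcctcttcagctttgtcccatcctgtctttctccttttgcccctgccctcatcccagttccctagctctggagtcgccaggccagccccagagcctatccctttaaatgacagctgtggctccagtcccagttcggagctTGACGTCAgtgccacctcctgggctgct
Kctd12, chr14:102982638-102982887, minus strand: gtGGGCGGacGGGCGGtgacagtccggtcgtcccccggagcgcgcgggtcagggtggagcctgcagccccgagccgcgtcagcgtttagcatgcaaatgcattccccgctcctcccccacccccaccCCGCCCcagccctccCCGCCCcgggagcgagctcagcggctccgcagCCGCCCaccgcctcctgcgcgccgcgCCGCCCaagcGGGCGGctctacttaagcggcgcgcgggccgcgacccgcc
The Gabbr1 window was 66% G and C and held 2 GC boxes, 76 and 48 bases before the start. The Kctd8 window was 53.6% G and C, close to the median of 52.4% over 32851 promoter windows of this length, and held no GC box and 1 CRE, 28 bases before the start. The Kctd12 window was 77.6% G and C and held 7 GC boxes. The window of Gabbr2, also higher, was 80.8% G and C and held 2 GC boxes; it is not printed because it reaches into the transcript that GENCODE M21 annotates. Among all the windows 32.74% held a GC box and 1.546% held the CRE. A match is a run of letters and says nothing on whether a factor binds there.

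Library totals lay between 38690380 and 51953811 counts, and 19563 genes passed the filter on low counts. Gad2 stood at 755.7, 722.2 and 758.7 CPM in bound replicates 1 to 3. CPM are counts per 1000000 of the library, scaled by the trimmed mean of M-values (TMM). In unbound replicates 1 to 4 Gad2 stood at 189.6, 182.0, 111.7 and 114.4 CPM, so it was higher in the UBS than in the UBGS libraries. All 10 GABAergic markers were higher in the bound libraries, and all 8 excitatory neuron markers were lower, with Slc17a7, the vesicular glutamate transporter of pyramidal cells, at 14.9 against 506 CPM on average. Markers of the CCK, of the SST and PV, and of the neurogliaform interneurons were higher for 7 of 8 genes in each list. Of the exceptions, Cck itself and Sox6 did not pass (edgeR adjusted p = 0.089 and 0.59). Kit, in the neurogliaform list, was lower (log2 fold change -0.66, edgeR adjusted p = 4.9e-05). Among all genes tested 31.0% were higher and 30.7% lower. Astrocyte markers were lower for 7 of 8 genes, oligodendrocyte markers for 8 of 8, and endothelial and mural markers for 6 of 8. Microglia markers went the other way: 10 of 10 were higher, and their summed level was 273.8, 627.4 and 225.5 CPM in bound replicates 1 to 3 against 76.3 to 111.4 CPM in the unbound libraries. Csf1r, the receptor for a microglial growth factor, stood at 48.5, 99.1 and 33.1 CPM in the bound libraries and at 15.7 to 21.9 CPM in the unbound ones. In such bulk RNA, fewer cells of a type and less RNA per cell cannot be told apart.

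Of the 5 genes, 4 were higher and 1 was lower in the bound libraries at an adjusted p under 0.05 (edgeR's quasi-likelihood test with Benjamini-Hochberg adjustment over the 19563 genes). This threshold was passed by 61.7% of all genes tested, by 31.0% as higher and by 30.7% as lower, so passing it does not set the 5 genes apart. For each of the 5, all bound libraries lay on 1 side of all unbound ones, which held for 63.3% of all genes tested. The median log2 fold change was 0.54 over the 5 genes and -0.01 over all genes tested.

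Gabbr1, the GABA-binding subunit, was the more strongly raised of the receptor subunits. The gene (ENSMUSG00000024462) lies on the plus strand of mm10 at chr17:37045966-37075067. Its level was 273.3, 260.4, 262.7 and 259.4 CPM in unbound replicates 1 to 4 and 573.9, 613.5 and 596.4 CPM in bound replicates 1 to 3. The unbound libraries sat within a narrow band, and every bound library was far above it. The means were 263.9 ± 6.36 CPM (SD, n = 4) and 594.6 ± 19.8 CPM (SD, n = 3), a 2.25-fold rise with a log2 fold change of 1.17 (SE 0.06, edgeR adjusted p = 4.4e-08). A larger log2 fold change was seen for 12.6% of the genes tested. The gene's long and short receptor forms are summed in 1 row and cannot be separated here.

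Gabbr2, the subunit that engages the G protein, rose less. The gene (ENSMUSG00000039809) lies on the minus strand at chr4:46662305-46991873. It stood at 292.8, 281.0, 302.7 and 291.1 CPM in unbound replicates 1 to 4 and at 367.6, 373.5 and 407.2 CPM in bound replicates 1 to 3. The groups did not overlap, but the gap between them was smaller than for Gabbr1. The rise was 1.31-fold, from 291.9 ± 8.86 CPM (SD, n = 4) to 382.8 ± 21.4 CPM (SD, n = 3), with a log2 fold change of 0.39 (SE 0.06, edgeR adjusted p = 0.00031). A larger log2 fold change was seen for 34.0% of the genes tested. Scaling by library totals in place of TMM, which shifts the median of all genes from -0.01 to 0.43 on the log2 scale, gave 0.82 for Gabbr2, and an offset for exon length gave 0.67. The exons of neither receptor subunit overlap those of another annotated gene.

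**Figure D1:**
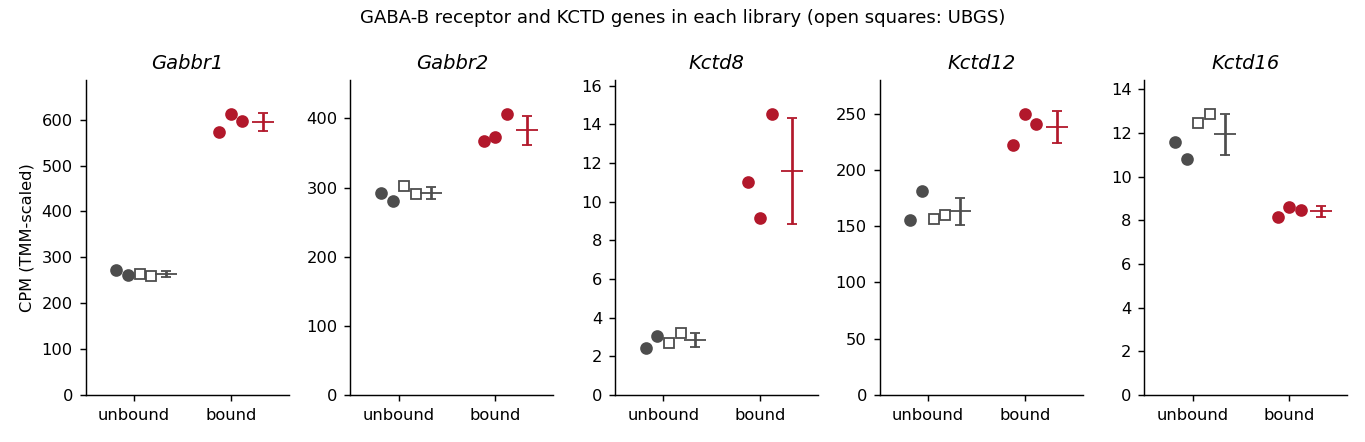
TMM-scaled CPM (vertical axis, linear, from 0, a separate scale in each panel) of the 5 genes in each of the 7 libraries. Points are libraries, with open squares for the UBGS libraries, and bars are the group mean ± SD. Bound libraries sit above unbound ones for Gabbr1, Gabbr2, Kctd8 and Kctd12 and below them for Kctd16.

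Kctd8, a KCTD subunit that does not make the response desensitize in the way Kctd12 does, had the largest fold change of the 5 genes at a low level. The gene (ENSMUSG00000037653) lies on the minus strand at chr5:69109285-69341679. It stood at 2.41, 3.06, 2.68 and 3.19 CPM in unbound replicates 1 to 4, which rest on 82, 131, 114 and 129 counts. In bound replicates 1 to 3 it stood at 11.03, 9.16 and 14.6 CPM, or 644, 572 and 642 counts. The lowest bound library was still above the highest unbound one, although the bound libraries differed more, relative to their mean, than for the other 4 genes. The means were 2.83 ± 0.356 CPM (SD, n = 4) and 11.6 ± 2.74 CPM (SD, n = 3), a 4.07-fold rise with a log2 fold change of 2.03 (SE 0.19, edgeR adjusted p = 5.1e-06), and 4.52% of the genes tested rose by more.

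Kctd12, the subunit that speeds desensitization, was the most abundant of the 3 KCTD genes and rose moderately. The gene (ENSMUSG00000098557) lies on the minus strand at chr14:102976581-102982637. It stood at 155.1, 181.2, 156.3 and 160.2 CPM in unbound replicates 1 to 4 and at 222.5, 250.1 and 241.1 CPM in bound replicates 1 to 3. Unbound replicate 2 lay above the other unbound libraries and below every bound one. The rise was 1.46-fold, from 163.2 ± 12.2 CPM (SD, n = 4) to 237.9 ± 14.1 CPM (SD, n = 3), with a log2 fold change of 0.54 (SE 0.08, edgeR adjusted p = 9e-05). Library totals in place of TMM gave a log2 fold change of 0.98. Bound replicate 2 had the highest level of Kctd12, as of Gabbr1, and the highest summed microglia markers. Without it the log2 fold change of Kctd12 was 0.51 (edgeR adjusted p = 0.00056). Bound replicates 1 and 3 still had 273.8 and 225.5 CPM of these markers, against 76.3 to 111.4 CPM in the unbound libraries. Whether microglial RNA adds to the level of Kctd12 was not tested.

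The value of Kctd12 is uncertain for a reason of annotation. The long noncoding gene Gm26778 (ENSMUSG00000097142) lies on the opposite strand at chr14:102978220-102982528, and its exons, 3805 bases in all, lie wholly inside the exon sequence of Kctd12, of which they cover 62.8%. Its counts were between 62.05% and 66.04% of those of Kctd12 in every library. Its log2 fold change was 0.50 (SE 0.07, edgeR adjusted p = 0.00012), close to that of Kctd12. The strand setting of the counting is not known here, so how far reads from the 2 genes were kept apart was not tested. Kctd16 and Kctd8 have smaller overlaps with genes on the other strand. AC098707.1 covers 10.35% of the exon sequence of Kctd16, and Gm24368 covers 3.143% of that of Kctd8. Gm24368 was itself higher in the bound libraries (log2 fold change 2.76, edgeR adjusted p = 0.0072), at 0.705 against 0.103 CPM on average.

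Kctd16, the third KCTD subunit, was the only one of the 5 genes that was lower in the bound libraries. The gene (ENSMUSG00000051401) lies on the plus strand of chromosome 18. It stood at 11.6, 10.8, 12.5 and 12.9 CPM in unbound replicates 1 to 4 and at 8.13, 8.61 and 8.48 CPM in bound replicates 1 to 3. Every bound library was below every unbound one, and the bound libraries were close together. The level was 1.42-fold lower, at 8.41 ± 0.249 CPM (SD, n = 3) against 11.9 ± 0.928 CPM (SD, n = 4), with a log2 fold change of -0.51 (SE 0.12, edgeR adjusted p = 0.0043). The call depends on the scaling: with library totals the log2 fold change was -0.07 (edgeR adjusted p = 0.64), and 71.5% rather than 50.3% of all calls were then higher in the bound libraries. Against the UBS libraries alone the log2 fold change was -0.41 (edgeR adjusted p = 0.084).

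**Figure D2:**
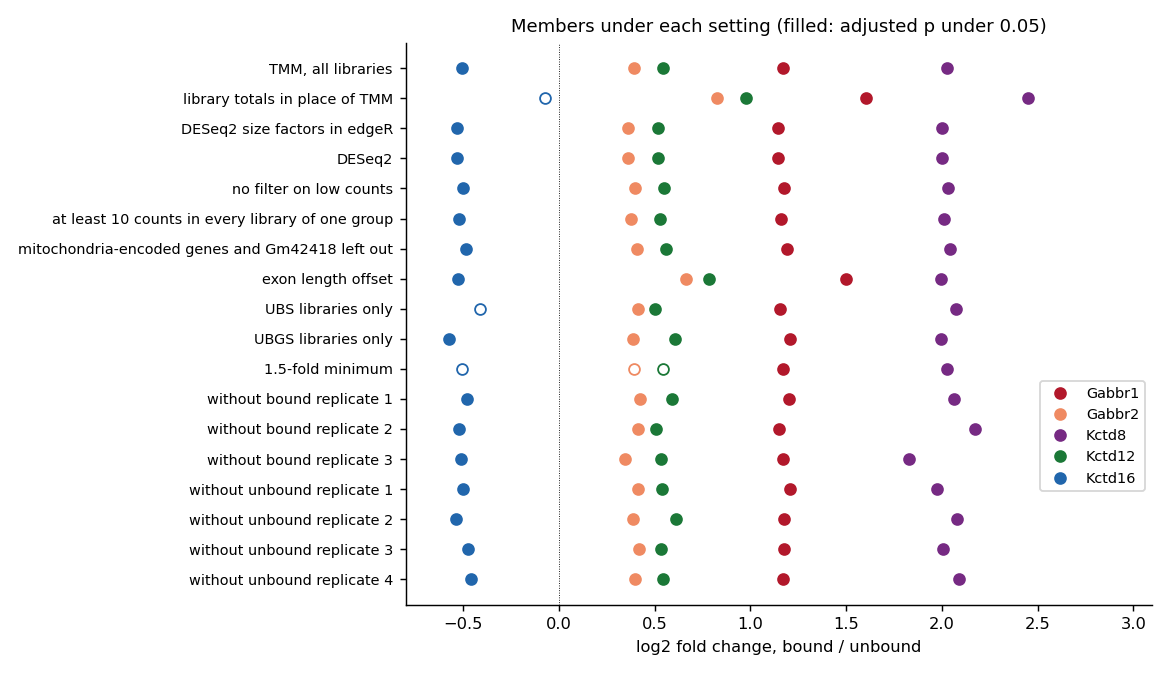
Log2 fold change of each of the 5 genes, bound against unbound (horizontal axis), under the chosen fit (top) and 17 alternatives (vertical axis). A filled point has an adjusted p under 0.05. Gabbr1 and Kctd8 stay filled and above 1 in every row, and Kctd16 is open and near 0 with library totals.

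Levels can be compared between genes only per length. Per kilobase of merged exon, the order in the bound libraries was Gabbr1 at 76.6 ± 2.55 CPM, Gabbr2 at 57.2 ± 3.20, Kctd12 at 39.3 ± 2.33, Kctd8 at 3.43 ± 0.814 and Kctd16 at 2.42 ± 0.0716 (SD, n = 3). In the unbound libraries it was Gabbr2 at 43.7 ± 1.33 CPM per kilobase, Gabbr1 at 34.0 ± 0.820, Kctd12 at 26.9 ± 2.01, Kctd16 at 3.43 ± 0.267 and Kctd8 at 0.840 ± 0.106 (SD, n = 4). The receptor subunits thus changed places between the groups, as did Kctd8 and Kctd16, whereas Kctd12 was the leading KCTD gene in both. The order of the receptor subunits in the unbound libraries depends on the length used: per kilobase of the longest coding transcript they stood at 50.3 ± 1.21 (Gabbr1) and 50.8 ± 1.54 CPM (Gabbr2), which do not differ beyond their spread, while in the bound libraries Gabbr1 remained higher, at 113.3 ± 3.78 against 66.6 ± 3.72 CPM. As shares of the summed level per kilobase of exon of the 3 KCTD genes, Kctd12 made up 87.0% ± 1.69 in the bound and 86.3% ± 1.38 in the unbound libraries. Kctd8 made up 7.61% ± 1.72 and 2.69% ± 0.261, and Kctd16 made up 5.36% ± 0.146 and 11.05% ± 1.30 (SD, n = 3 and n = 4).

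Ratios of counts within a library do not depend on the scaling between libraries. The ratio of Gabbr1 to Gabbr2 was 1.56, 1.64 and 1.46 in bound replicates 1 to 3 and 0.933, 0.927, 0.868 and 0.891 in unbound replicates 1 to 4. The groups did not overlap, and the ratio was 1.72-fold higher in the bound libraries (0.78 on the log2 scale, exact two-sided permutation test over libraries, p = 0.0571, 0.0714 adjusted over the 5 ratios). With 3 against 4 libraries 0.0571 is the smallest p this test can give, so none of the ratios could pass 0.05. The ratio of Kctd8 to Gabbr2 was 3.07-fold higher and that of Kctd16 to Gabbr2 1.86-fold lower in the bound libraries, both without overlap and with the same exact permutation p of 0.0571. The ratio of Kctd12 to Gabbr2 overlapped between the groups and was 1.11-fold higher (0.15 on the log2 scale, exact permutation p = 0.171). The ratio of Kctd12 to Kctd16 was 27.3, 29.0 and 28.4 in the bound and 13.3, 16.8, 12.5 and 12.4 in the unbound libraries, 2.07-fold higher and without overlap (exact permutation p = 0.0571).

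**Figure D3:**
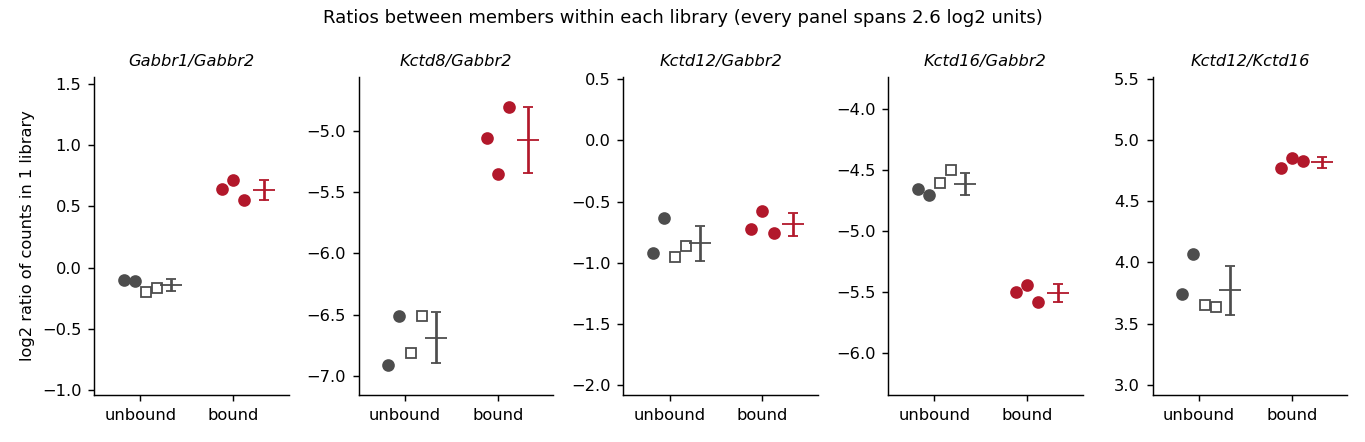
Log2 ratio of counts between genes within each library (vertical axis, every panel spanning the same range) in the unbound and bound libraries. Points are libraries, with open squares for UBGS, and bars are the mean ± SD. The groups are separate for every ratio except Kctd12 to Gabbr2.

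Within the unbound group, the UBS and UBGS libraries were compared with the same edgeR test. Of 19256 genes tested, 44 passed the same threshold (0.229%), while 3233 would without adjustment of their p-values. None of the 5 genes passed. Some marker levels did split by series, as Gad2 did. Summed astrocyte markers stood at 3082 and 2936 CPM in the UBS and at 2118 and 2131 CPM in the UBGS libraries. Summed CCK interneuron markers stood at 301.2 and 315.2 CPM in the UBS and at 482.4 and 459.5 CPM in the UBGS libraries. That sum is dominated by few genes. Over the unbound libraries Cck alone ran from 95.6 to 253.3 CPM, whereas Cnr1 ran from 151.7 to 169.6 CPM. The split is thus not one of the whole list. Summed SST and PV markers overlapped between the series, at 481.6 to 535.2 CPM. The log2 fold change, UBS over UBGS, was 0.03 for Gabbr1, -0.05 for Gabbr2, -0.10 for Kctd8, 0.09 for Kctd12 and -0.18 for Kctd16, with edgeR adjusted p-values of 0.83, 0.70, 0.85, 0.64 and 0.45. Kctd12 passed only without unbound replicate 1 (log2 fold change 0.20, edgeR adjusted p = 0.0094), a fit with a lone UBS library that is assumed to vary like the others.

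The channels that the receptor acts on are listed beside all genes tested, of which 31.0% were higher and 30.7% lower. Of the 4 GIRK channel genes 0 were higher and 2 were lower, with a median log2 fold change of -0.17. With library totals 1 was higher and 1 lower, beside 9285 higher and 3704 lower of the 19563 genes tested. Kcnj6, which encodes GIRK2, the subunit that neuronal channels share, fell to 15.99 ± 1.40 CPM (SD, n = 3) from 55.3 ± 5.63 CPM (SD, n = 4), a log2 fold change of -1.79 (SE 0.11, edgeR adjusted p = 1.7e-07). Kcnj3 (GIRK1) had a log2 fold change of -0.38 (edgeR adjusted p = 0.0024), and with library totals 0.06 (adjusted p = 0.59). Its exon sequence overlaps that of Gm26794, on the other strand, over 31.08%. Kcnj9 (GIRK3) stood at 30.1 ± 3.84 CPM in the bound and 29.1 ± 0.826 CPM in the unbound libraries (edgeR adjusted p = 0.69). Kcnj5 (GIRK4) was at 1.301, 1.249 and 0.068 CPM in bound replicates 1 to 3, and its log2 fold change of 0.91 (edgeR adjusted p = 0.30) was 1.44 without bound replicate 3 (adjusted p = 0.016). Both presynaptic calcium channel genes were higher, and whether they differed from the GIRK genes was not tested: Cacna1b, the N-type channel, by 0.59 on the log2 scale (edgeR adjusted p = 1.8e-05) and Cacna1a, the P/Q-type channel, by 0.21 (adjusted p = 0.025). The call of Cacna1a was lost without bound replicate 2 or without unbound replicate 2, 3 or 4 (edgeR adjusted p of 0.061 to 0.069), with DESeq2 size factors (0.051) and against the UBS libraries alone (0.16).

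Among 18 G-protein subunit genes 10 were higher and 3 were lower, with a median log2 fold change of 0.30, beside 31.0% higher and 30.7% lower among all genes tested. With library totals 15 were higher, beside 9285 of the 19563 genes tested. With a 1.5-fold minimum 6 were, beside 3246 of all genes tested. The largest rises were in gamma subunits. Gng4 stood at 224.1 ± 19.2 CPM in the bound and 35 ± 4.19 CPM in the unbound libraries (log2 fold change 2.68), Gng3 rose 4.28-fold (2.10), and Gng8 had a log2 fold change of 1.51, which was 0.92 without bound replicate 3 (edgeR adjusted p = 0.087). The exon sequence of Gng3 overlaps that of Bscl2, on the other strand, over 24.22%. The gamma subunits Gng12 and Gng11 fell, with log2 fold changes of -1.78 and -1.46, and so did the inhibitory alpha subunit Gnai3, with -0.75. Gnao1, the most abundant alpha subunit of neurons, stood at 923.8 ± 48.3 CPM in the bound and 951.2 ± 45.2 CPM in the unbound libraries (log2 fold change -0.04, edgeR adjusted p = 0.61); it was named after its value was seen.

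Of 9 adenylyl cyclase genes 8 were tested, of which 3 were higher and 2 lower, with a median log2 fold change of 0.05, a count near the share of all genes that passed (61.7%). Adcy7, Adcy5 and Adcy2 rose by 1.52, 0.65 and 0.32 on the log2 scale, while Adcy1, a calcium-stimulated form, fell by 1.88 to 234.9 ± 21.6 CPM from 862.5 ± 107.0 CPM, and Adcy9 fell by 1.79. The complex of R7 RGS proteins speeds the shut-off of inhibitory G proteins. Of its 6 genes 2 were higher and 3 lower, with a median of -0.44, beside 31.0% higher and 30.7% lower among all genes tested. With library totals 3 were higher and 1 lower, beside 9285 higher and 3704 lower of the 19563 genes tested. Rgs6 and Gnb5 rose by 1.58 and 0.32, and Rgs7bp, the membrane anchor of the complex, fell by 0.76 to 261.0 ± 27.8 CPM from 442.9 ± 9.72 CPM. Rgs9 had a log2 fold change of -0.66 (edgeR adjusted p = 0.019), and its call was lost without bound replicate 3 or unbound replicate 3 or 4 (adjusted p of 0.059 to 0.065). Rgs7 had one of -0.23 (adjusted p = 0.033), which was lost without bound replicate 1 or unbound replicate 1, 2 or 3 (adjusted p of 0.057 to 0.12). Rgs7 was higher, by 0.20, with library totals (adjusted p = 0.048).

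Of 11 genes for proteins that bind the receptor or govern its trafficking, 8 were higher and 2 lower, with a median log2 fold change of 0.45, beside 31.0% higher and 30.7% lower among all genes tested. With a 1.5-fold minimum 4 were higher and 0 lower, beside 3246 higher and 3608 lower of the 19563 genes tested. Praf2, which holds Gabbr1 back in the endoplasmic reticulum, stood at 191.0 ± 9.09 CPM in the bound and 58.1 ± 2.40 CPM in the unbound libraries, a log2 fold change of 1.72. Its exon sequence overlaps that of Gm45208, on the same strand, over 35.92%, and how far their reads were kept apart was not tested. Pianp, a membrane protein that binds the extracellular sushi domain of the long form of Gabbr1, rose by 1.27, and App, the amyloid precursor protein, which binds the same domain, rose by 0.29. Ajap1, the third such protein, had a log2 fold change of 0.18 (edgeR adjusted p = 0.33); App and Ajap1 were named after their values were seen. Atf4, a transcription factor that binds the receptor tail, rose by 1.04. Mpdz, a PDZ scaffold, and Nsf, an ATPase of membrane fusion, fell, with log2 fold changes of -0.70 and -0.63. With library totals they had -0.26 and -0.20 and did not pass (edgeR adjusted p = 0.12 and 0.069).

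**Figure D4:**
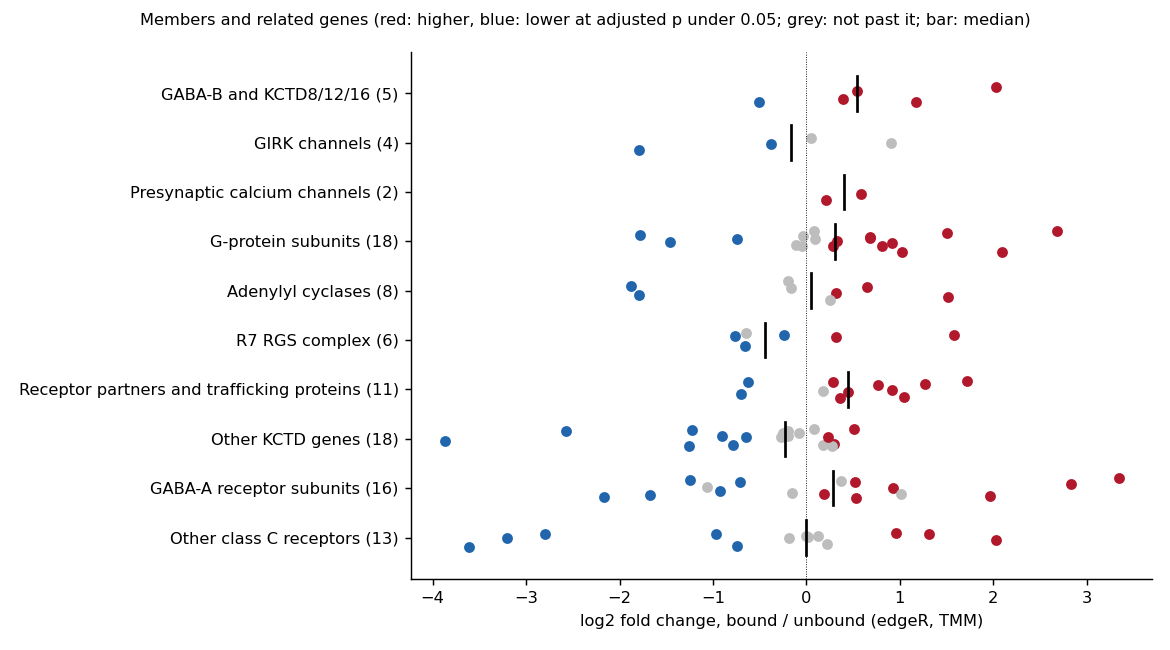
Log2 fold change, bound against unbound (horizontal axis), of the 5 genes and of 9 lists of related genes (vertical axis, with the number tested). Points are genes, coloured red where higher and blue where lower at an adjusted p under 0.05 and grey otherwise, and a bar marks each list's median. The 5 genes have a median of 0.54, and the GIRK channels one of -0.17.

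Of the other KCTD genes, 19 were listed and 18 tested: 3 were higher, 7 were lower and 8 did not pass, with a median log2 fold change of -0.23, a share passing near that of all genes (61.7%). With library totals 8 were higher and 6 lower, beside 9285 higher and 3704 lower of the 19563 genes tested. Kctd17 and Kctd2 rose by 0.51 and 0.30, and Kctd20 had a log2 fold change of 0.23 (edgeR adjusted p = 0.041). Its call was lost without any of the bound libraries or without unbound replicate 2 or 4 (adjusted p of 0.054 to 0.093). Kctd20 also lost it with DESeq2 size factors (edgeR adjusted p = 0.065), without a filter on low counts (0.061) and against the UBS libraries alone (0.054). A filter of at least 10 counts in every library of 1 group gave an edgeR adjusted p of 0.051. Kctd4 fell by 3.87, to 4.58 ± 1.13 CPM from 67.2 ± 2.90 CPM, and Kctd15 had a log2 fold change of -1.25. Kctd14 had one of -2.58 at a low level (0.051, 0.640 and 0.113 CPM in bound replicates 1 to 3), which was -4.32 without bound replicate 2. Kctd12b, a close relative of Kctd12 that also joins GABA-B receptors and was named after its value was seen, fell by 1.23, to 1.82 ± 0.851 CPM from 4.23 ± 0.870 CPM. Of the subunits of the GABA-A receptor, the chloride channel that GABA opens, 19 were listed and 16 tested, of which 7 were higher and 5 lower, with a median of 0.28, beside 31.0% higher and 30.7% lower among all genes tested. Gabrq, Gabrg1 and Gabrg3 rose by 2.83, 1.96 and 0.93, whereas Gabra5 and Gabrb1 fell, with log2 fold changes of -2.17 and -1.68. Gabrq was low and uneven, at 6.11, 3.54 and 1.54 CPM in bound replicates 1 to 3 and 0.28 to 0.82 CPM in the unbound libraries.

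The genes whose log2 CPM, centred over the 7 libraries, lay closest to that of each of the 5 genes were sought among 8591 protein-coding genes with at least 10 CPM on average. The measure is a Euclidean distance, on the log2 scale, and it rests mostly on the difference between the groups. Polr2m lay closest to Gabbr1, at 0.121, followed by Mtch1 and Psme2. Irgq lay closest to Gabbr2, at 0.065, followed among the genes named by Got1. Ube2o lay closest to Kctd12, at 0.062, followed by Stx4a and Rgmb. Dlg2 lay closest to Kctd16, at 0.10, followed by Acbd5 and Ppp1r7. The nearest gene to Kctd8, Ccdc136, lay farther away, at 0.258, followed by Hcfc1r1 and Cox5a.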

How the data were processed

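RNA was sequenced from 3 bound and 4 unbound TRAP libraries of mouse hippocampus. The authors deposited raw gene counts in whole numbers, made with STAR 2.5.3a and HTSeq on mm10 per the submitters' processing notes. No source used here names the annotation, the strand setting or the treatment of multiply matching reads. IDs were matched without version to GENCODE M21 (GRCm38, the assembly of mm10), which gave 37607 of 39017 rows a symbol.

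Counts were tested with edgeR 4.0.16 in R 4.3.3 (TMM scaling, filterByExpr, robust quasi-likelihood fit, Benjamini-Hochberg adjustment, threshold 0.05), with all 7 libraries in the fit and no covariate. The procedure was tested on simulated data in which few genes changed, as many up as down. That simulation therefore did not test the scaling between the groups. CPM are counts divided by the TMM-scaled library size, in counts per 1000000. Ratios used log2 of counts plus 0.5 and an exact permutation test over libraries. Alternatives were library totals, DESeq2 1.42.0 and its size factors, other filters, an exon length offset, either series of unbound libraries alone, a 1.5-fold minimum and leaving out each library. Totals of 38690380 to 51953811 counts make counting error small except for Kctd8 in the unbound libraries and for genes near or below 1 CPM.

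The 5 genes and all lists were chosen with earlier results of these data known. Named were the 5 genes, every GIRK and calcium channel gene, and from each other list the 3 largest rises and falls past the threshold among genes averaging at least 1 CPM. The 3 genes closest to each of the 5 were named too, among protein-coding genes averaging at least 10 CPM, and Gad2, Slc17a7 and Csf1r as checks. Some genes that this rule names are not reported here.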

Additional observations from a re-analysis of the deposited data

Results flagged for a closer look

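In the unbound group of 4 libraries, 4 genes had 1 library far from the other three, measured as the gap to its nearest neighbour over the whole range (Dixon's ratio). The 5 genes were not among them. Of 58 sets of 4 values checked, chance alone would flag about 1 in 20. Gabra5, with a ratio of 0.9426, stood at 272.8 CPM in unbound replicate 1 and at 232.9 to 235.1 CPM in the others. Nsf, with a ratio of 0.92, stood at 629.9 CPM in 1 library and at 686.7 to 691.7 CPM in the others. Gabrg1, with a ratio of 0.894, stood at 8.60 CPM in unbound replicate 2 and at 4.86 to 5.26 CPM in the others. Gng11, with a ratio of 0.8544, stood at 4.08 CPM in 1 library and at 8.13 to 8.82 CPM in the others.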

How the results depend on the processing

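Over 17 alternatives the log2 fold change ran from 1.14 to 1.61 for Gabbr1, 0.35 to 0.82 for Gabbr2, 1.83 to 2.45 for Kctd8, 0.50 to 0.98 for Kctd12 and -0.57 to -0.07 for Kctd16. Leaving out any single library kept 4 of the 5 genes higher and 1 lower. With library totals 9285 genes were higher and 3704 lower, 0 of the 5 genes was lower (Kctd16 -0.070, adjusted p = 0.64), and Kcnj3 and Rgs7 turned to 0.056 and 0.20. Rgs7 also turned with the exon length offset, to 0.0046 (adjusted p = 0.97), with which Mpdz (-0.13, adjusted p = 0.44) and Rgs9 (-0.40, 0.12) did not pass. With the UBS libraries alone 0 of the 5 was lower (Kctd16 -0.41, adjusted p = 0.084), and Gng8 (adjusted p = 0.11), Adcy2 (0.1) and Rgs9 (0.2) did not pass. With the UBGS libraries alone Kctd14 (0.14), Rgs7 (0.18) and Kctd20 (0.11) did not. When a change beyond 1.5-fold was tested, 3246 genes were higher and 3608 lower, and 2 of the 5 genes were higher and 0 lower: Gabbr2 at 0.39 (adjusted p = 1), Kctd12 at 0.54 (0.69) and Kctd16 at -0.51 (0.74) no longer passed. UBS over UBGS gave 18 higher and 26 lower genes with TMM, 7 and 15 with library totals, 185 and 116 with DESeq2, 60 and 44 without a filter, and 4 to 3596 and 11 to 3793 when leaving out a library. The cause was not tested, except that leaving out a library leaves 1 in its series and that the 1.5-fold test asks for more. With no filter the median log2 fold change over all genes was -0.17. For the ratios only 9 alternatives were run, without the exon length offset. Over these the log2 difference in ratio ran from 0.74 to 0.82 for Gabbr1 to Gabbr2 and from 0.089 to 0.22 for Kctd12 to Gabbr2. Depth limits Kctd8, with 82 to 131 counts per unbound library. No paired analysis was possible because the labels give the groups no shared replicate numbers.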

Other observations

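The other class C receptors belong to the same family of G protein-coupled receptors as GABA-B. Of 16 listed and 13 tested, 3 were higher and 5 lower in the bound libraries, with a median log2 fold change of 0.00 against -0.01 over all genes tested (edgeR adjusted p under 0.05). Of all genes tested 31.0% were higher and 30.7% lower, so the share that passed was near that of all genes. With library totals in place of TMM 5 were higher, beside 9285 of the 19563 genes tested. The metabotropic glutamate receptor genes Grm4 and Grm8 rose by 2.03 and 1.32 on the log2 scale. Grm4 stood at 37.9 ± 7.60 CPM (SD, n = 3) in the bound and 9.28 ± 1.57 CPM (SD, n = 4) in the unbound libraries. Grm2 and Grm3, the receptors of group II, had log2 fold changes of -3.62 and -2.80. Gprc5c, an orphan receptor, fell by 3.20, to 0.237 ± 0.121 CPM from 2.23 ± 0.210 CPM.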
